A study of Drosophila melanogaster with 46 samples.

Results

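The protein subunits of the Drosophila dosage compensation complex are encoded by msl-1, msl-2, msl-3, mle and mof, and all 5 genes were found on the arrays by their symbols in the probe annotation. Each gene is printed as 1 element of 2 duplicate spots, which makes 10 of 31464 spots and 5 of 10850 named genes. RefSeq Release 6 places msl-1 (CG10385) and msl-2 (CG3241) on chromosome arm 2L, msl-3 (CG8631) on 3L, mle (CG11680) on 2R and mof (CG3025) on the X.

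In male flies the complex binds along the X chromosome and raises the transcription of its genes, which balances the X between the sexes. MSL1 is the scaffold, MSL2 the RING-finger subunit that males alone make in quantity, MSL3 a chromodomain protein, MLE an RNA helicase and MOF the acetyltransferase that marks histone H4 at lysine 16. In females Sex-lethal blocks the splicing and translation of msl-2 mRNA, while mRNA of the other subunits is made in both sexes and is loaded into eggs. The tra2 and dsx genes act below Sex-lethal in somatic sex determination, so that XX flies lacking tra2 function look like males without having a male X dose.

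The study set sexes, tissues and sex determination mutants against each other on 44 spotted 2-colour arrays, and 2 further arrays carried RNA of mixed sexes in both channels. Flies were adults aged 3 to 5 days and kept at 25 C. The mutant RNAs came from XX;tra2 flies (w[67c]/w[67c];tra2[B]/TRIX), their XY;tra2 siblings (w[67c]/BsY;tra2[B]/TRIX), XX;dsx flies (+/+;dsx[M+R45]/dsx[swe]), and tudor females and males, germlineless tud[1] bw[1]sp[1] flies whose mothers carried the same alleles. The other RNAs came from ovaries, testes, female and male carcasses left after removal of the gonads, and whole females and males, all of y[1]w[67c] (written y[1]w[1] in some label fields). The mutants thus differed from the y[1]w[67c] flies in strain background as well as in the named alleles. Allele and background cannot be told apart in a ratio of mutant to y[1]w[67c] RNA. There were 15 comparisons, 7 with 4 arrays and 8 with 2. Arrays that share a number, such as 1a and 1b, also share a hybridisation and a dye assignment, so 4 arrays are 2 such pairs. Such pairs were more alike than others in some comparisons only. Over the first of 2 subarrays, 3a correlated with 3b at 0.76 and with 4a at 0.34, while 1a correlated with 1b at 0.86 and with 2b at 0.85. The labels do not say that repeat arrays used separate extracts, so the p-values measure the spread between arrays, which may be technical.

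Values are log2 ratios, turned so that the first-named RNA is on top. The log base and the numerator are not stated in the sources used here. The direction is called likely because Yp1, Yp2 and Yp3, which encode yolk proteins, had higher values in females on 4 of 4 arrays each, and the sperm genes betaTub85D, dj and Mst87F were lower in ovary than in testis on 4 of 4 arrays each. A gene is called higher or lower where the adjusted p of the limma fit over all elements (Benjamini-Hochberg within the comparison) is below 0.05. Each element was measured on 29 (mof), 32 (msl-3), 41 (mle) or 45 (msl-1 and msl-2) of the 46 arrays. Of 75 gene-by-comparison values, 66 rested on at least 2 arrays and were tested, and 22 were called. On arrays 7b and 8b (ovary over female carcass) the first of the 2 subarrays, which holds msl-1, msl-3 and mof, ran against its partner arrays over all its elements, with correlations of -0.91 and -0.83 with ovary over tudor female against 0.82 and 0.91 for arrays 7a and 8a. These values were left out.

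All 5 genes were called between whole females and males. The scaffold gene msl-1, msl-3 and mof were higher in females, and msl-2 and the helicase gene mle were lower, of which the mof and mle calls were lost under some alternative settings. With 5 of 5 genes called, the background was 56.7% of all 12987 elements tested, of which 28.9% were called higher and 27.8% lower, so that a call by itself was common in this comparison. The median of the 5 genes was 0.45, beside 0.00 over all elements.

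For msl-1 the female over male log2 ratios were 1.55, 0.15, 0.70 and 0.79 on arrays 1a, 1b, 2a and 2b. All 4 lay above 0, but they ranged widely between arrays. The fitted ratio was 0.80 ± 0.12 (SE, 4 arrays), which is 1.74-fold, with an adjusted p of 2.0e-06. For msl-3 the 3 measured arrays gave 1.09, 0.56 and 0.87, all above 0. Its fitted ratio was 0.84 ± 0.11 (SE, 3 arrays), or 1.79-fold, with an adjusted p of 1.9e-06 in the limma fit. For mof the 3 arrays gave 0.54, -0.20 and 0.92. They lay on both sides of 0, and the fitted 0.45 ± 0.15 (SE) had a limma adjusted p of 0.016. Without array 1a or array 2a it was 0.36 or 0.24, with adjusted p of 0.14 or 0.27, and without array 1b it was 0.73. With each array scaled to the same spread msl-1 was 0.50 and msl-3 0.54, both called, and mof was 0.29 and not called (adjusted p 0.094). Fitted on its own arrays alone, mof was 0.42 (adjusted p 0.21).

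The msl-2 log2 ratios were -0.38, -0.48, -0.72 and -0.12 on the 4 arrays, all below 0. The fitted ratio was -0.43 ± 0.12 (SE, 4 arrays), or 1.34-fold lower in females, with a limma adjusted p of 0.0020. The mle ratios were -0.19, -0.07, -0.79 and -0.05, where array 2a stood apart from the rest. The fitted ratio of -0.28 ± 0.11 (SE, 4 arrays) had a limma adjusted p of 0.029, and without array 2a it was -0.13 with an adjusted p of 0.35. The mle call was also lost without array 1a (adjusted p 0.084), under scaling to equal spread (-0.18, adjusted p 0.28), without a dye coefficient (adjusted p 0.092) and on its own arrays alone (adjusted p 0.22). On the arrays with mixed RNA in both channels, where no difference can exist, mle read 0.26 and 0.09, msl-2 read 0.01 and 0.03, and msl-1, msl-3 and mof read 0.04, 0.09 and 0.09 on the single array that measured each. The size of the helicase gene's fitted difference, 0.28, was close to its larger reading on a mixed array, 0.26. The 2 are unlike measures. The fit used 4 arrays and removed a dye term, while a mixed reading is 1 array with any dye effect left in.

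**Figure D1:**
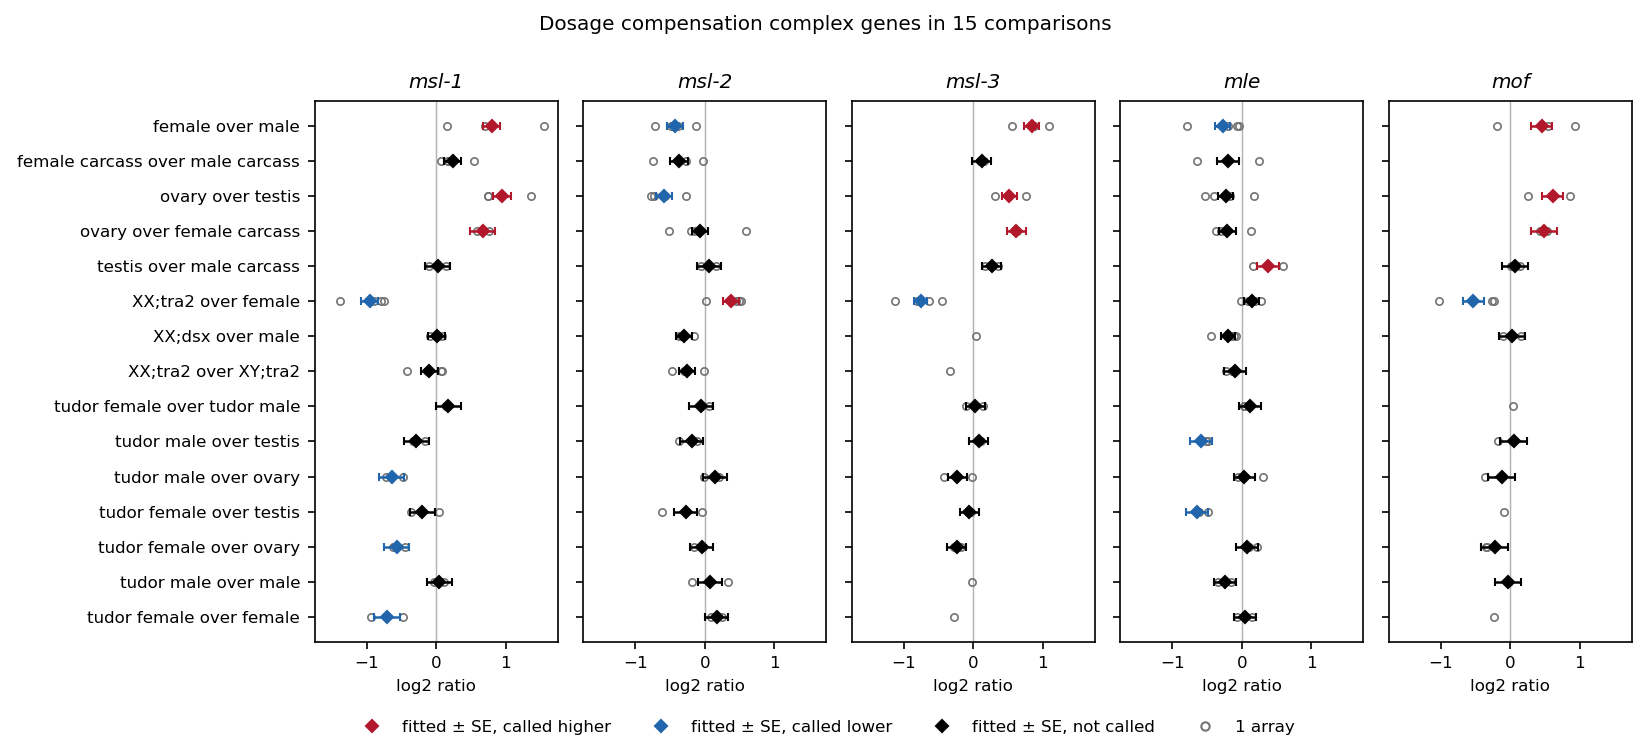
Log2 ratio (x axis) of the 5 genes in the 15 comparisons (y axis, first-named RNA over the second); open circles are single arrays and diamonds the fitted ratio with its standard error, red where called higher, blue where called lower and black where not called. In female over male msl-1 (0.80), msl-3 (0.84) and mof (0.45) sit right of 0 and msl-2 (-0.43) and mle (-0.28) left of it, while in tudor female over tudor male no gene was called.

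Ovary over testis gave 4 of 5 genes called, msl-1, msl-3 and mof higher and msl-2 lower, against a background of 66.7%. The msl-1 ratios were 1.36, 0.74, 0.93 and 0.75 on arrays 5a, 5b, 6a and 6b, all above 0, and the fitted ratio was 0.95 ± 0.12 (SE), or 1.93-fold (limma adjusted p 4.7e-08). For msl-3 the arrays gave 0.75, 0.31 and 0.51, with a fitted 0.52 ± 0.11 (SE, 3 arrays, limma adjusted p 0.00031). For mof they gave 0.86, 0.25 and 0.60, with a fitted 0.61 ± 0.15 (SE, 3 arrays, limma adjusted p 0.0017). All 3 genes were above 0 on every array that measured them. The msl-2 ratios were -0.58, -0.77, -0.72 and -0.27, all below 0, and the fitted ratio was -0.59 ± 0.12 (SE) (limma adjusted p 3.9e-05). The mle ratios were -0.17, -0.40, -0.53 and 0.18, with a fitted -0.23 ± 0.11 (SE) that was not called (adjusted p 0.059). On the common scale described below it was -0.42 and called (adjusted p 0.00017). With each array scaled to the same spread, msl-3 was 0.27 (adjusted p 0.069) and mof 0.32 (adjusted p 0.054), both no longer called, and msl-2 was -0.34 and called.

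In carcasses none of the 4 tested genes was called by limma, against a background of 18.6%, and 1 had an unadjusted p below 0.05. That gene was msl-2, with ratios of female over male carcass of -0.27, -0.75 and -0.03 and a fitted -0.37 ± 0.14 (SE, 3 arrays, adjusted p 0.053). Its size was near that in whole flies, and without array 4b it was -0.51 with an adjusted p of 0.034. It was also called under 3 of the alternative settings. These were the common scale described below (-0.37, limma adjusted p 0.034) and arrays 7b and 8b left out (-0.36, 0.032) or used as deposited (-0.38, 0.038). The msl-1 ratios were 0.54, 0.17, 0.07 and 0.16, all above 0 and below every ovary over testis value, with a fitted 0.24 ± 0.12 (SE, adjusted p 0.18); scaled to the same spread it was 0.32 and called (adjusted p 0.033). The msl-3 arrays gave 0.16 and 0.09 (fitted 0.12 ± 0.14, SE). The mle arrays, of opposite dye assignment, gave 0.24 and -0.65 and so disagreed in sign (fitted -0.20 ± 0.16, SE). No carcass array measured mof. The female carcass still showed ovary transcripts: osk, yl and Vm32E were at 1.02, 1.22 and 1.31 in female over male carcass, beside 1.97, 2.25 and 2.57 in whole females over males. Their part in the carcass values was not tested.

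Within a sex, the gonads were also set against the carcass. Ovary over female carcass gave 3 of 5 genes called against a background of 49.2%. The scaffold gene msl-1 read 0.76 and 0.58 on arrays 7a and 8a, with a fitted 0.67 ± 0.18 (SE, limma adjusted p 0.0027). The msl-3 arrays gave 0.63 and 0.61 (fitted 0.62 ± 0.14, SE, limma adjusted p 0.00085), and the mof arrays 0.53 and 0.43 (fitted 0.48 ± 0.19, SE, limma adjusted p 0.043). Without array 7a msl-1 was 0.62 (adjusted p 0.072) and mof 0.29 (adjusted p 0.47), and without array 8a mof was 0.68 (adjusted p 0.067). For msl-2 the 4 arrays gave -0.15, -0.51, -0.20 and 0.59, on both sides of 0, with a fitted -0.07 ± 0.12 (SE). The mle arrays gave 0.13, -0.37 and -0.30 (fitted -0.21 ± 0.13, SE), also on both sides of 0. Testis over male carcass gave 1 of 5 genes called against 52.9%: mle, at 0.59 and 0.16 on arrays 9 and 10 (fitted 0.37 ± 0.16, SE, limma adjusted p 0.047). That call was lost without either array (0.24 without array 9 and 0.51 without array 10, adjusted p of 0.48 and 0.077) and under 6 other settings. The msl-3 arrays gave 0.36 and 0.17, both above 0, with a fitted 0.26 ± 0.14 (SE) that was not called (adjusted p 0.11). The msl-1, msl-2 and mof arrays lay between -0.10 and 0.16. Accessory gland genes, which testis itself does not express, were also higher in the testis RNA than in the male carcass (SP 1.19, Mst57Dc 1.39, Acp36DE 1.12). So were Yp1 (1.00), Yp2 (1.33) and yl (0.93) of the yolk and ovary markers, while Yp3, osk and Vm32E were not called. Whether the helicase gene's value moved with any of these genes was not tested.

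By a test of the difference itself, the female excess of msl-1 and msl-3 was larger in whole flies than in carcasses or in flies without a germline. Every one of these calls was lost once arrays were scaled to the same spread. Of all 6 calls in the contrasts below, 5 were lost in that way, and the call kept was that of msl-1 against the tra2 siblings. For msl-1 the whole-fly ratio exceeded the carcass ratio by 0.56 ± 0.17 (SE, limma adjusted p 0.012), and for msl-3 by 0.71 ± 0.18 (adjusted p 0.0035); 37.8% of all elements were called in this contrast. Over the tudor ratio the excess was 0.62 ± 0.22 for msl-1 (adjusted p 0.032) and 0.81 ± 0.18 for msl-3 (adjusted p 0.0025), against a background of 27.8%. Without a dye coefficient the msl-1 calls over the carcass and tudor ratios were lost as well (limma adjusted p 0.051 and 0.081). The msl-1 call over the tudor ratio was also lost without the hybridisation block (adjusted p 0.052) and with arrays 7b and 8b as deposited (adjusted p 0.064). The gonad ratio exceeded the carcass ratio by 0.71 ± 0.17 for msl-1 (adjusted p 0.00092) and by 0.40 ± 0.18 for msl-3 (adjusted p 0.061), with 56.4% called. Over the XX;tra2 over XY;tra2 ratio the whole-fly excess of msl-1 was 0.89 ± 0.17 (adjusted p 0.00014), with 38% called. Neither msl-2 nor mle was called in these 4 contrasts, with differences from -0.06 ± 0.18 to -0.37 ± 0.20 (SE) for msl-2 and from -0.03 ± 0.19 to -0.40 ± 0.19 for mle; mof could not be tested in them.

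The arrays themselves differed in spread between these sources. The median absolute deviation of all log2 ratios was 0.29 to 0.43 on whole-fly arrays, 0.33 to 0.47 on gonad arrays, 0.15 to 0.29 on carcass arrays, 0.15 to 0.23 on XX;tra2 over XY;tra2 arrays and 0.085 on both tudor female over tudor male arrays. When each array was scaled to the same spread, the whole minus carcass difference was 0.19 for msl-1 (adjusted p 0.46) and 0.40 for msl-3 (adjusted p 0.17). The whole minus tudor difference was then 0.09 for msl-1 (adjusted p 0.81) and 0.44 for msl-3 (adjusted p 0.13), and the gonad minus carcass difference of msl-1 was 0.20 (adjusted p 0.37). None of these 5 was called under that scaling. The whole minus tra2 difference of msl-1 was 0.59 and called (adjusted p 0.0040). This difference was not tested without array 15b of XX;tra2 over XY;tra2. Over the first subarray, which holds msl-1, that array correlated with 15a at 0.57, with 16a at 0.10 and with 16b at 0.22. It read -0.41 for msl-1.

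**Figure D2:**
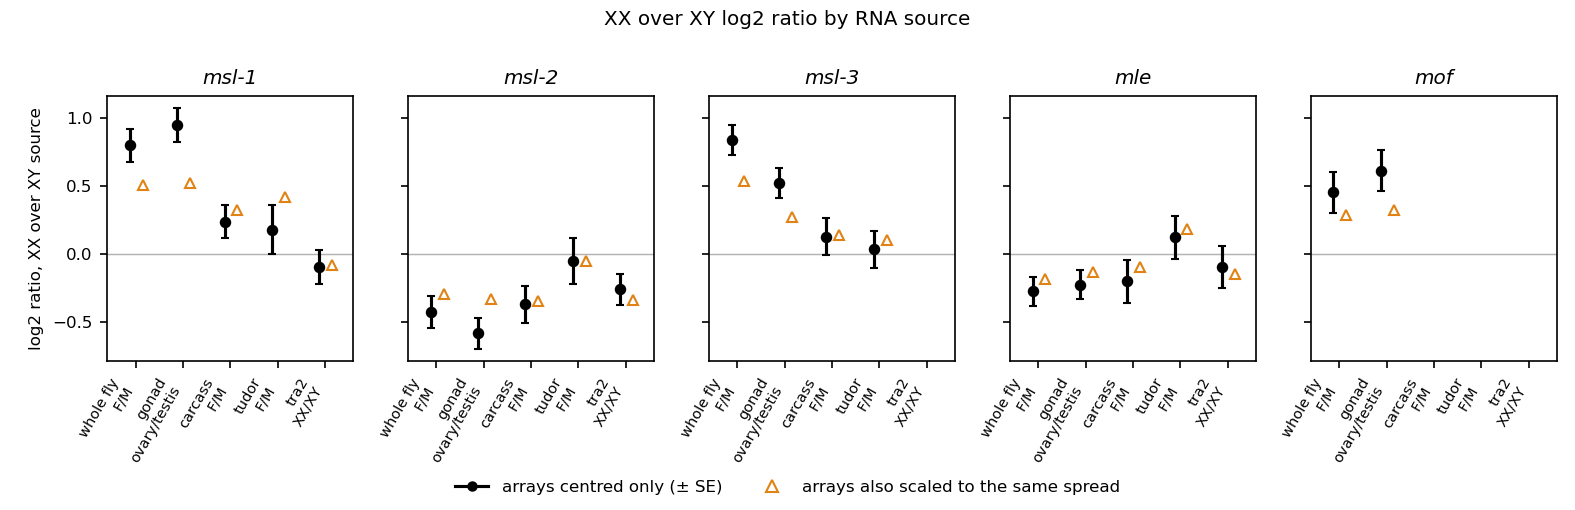
Log2 ratio of the XX over the XY source (y axis) for each of the 5 genes in whole flies, gonads, carcasses, tudor flies and tra2 flies (x axis; F/M is female over male); black circles with standard errors are from centred arrays and orange triangles from arrays also scaled to the same spread. The msl-1 and msl-3 circles are highest in whole flies (0.80 and 0.84) or gonads (0.95 and 0.52), and for msl-1 the triangles of the first 4 sources lie closer together; an empty place marks a source with under 2 arrays for that gene.

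XX;tra2 flies had less msl-1, msl-3 and mof mRNA than XX females and more msl-2 mRNA. XX;tra2 over female gave 4 of 5 genes called, against a background of 56.5% (28.4% higher and 28.1% lower). The msl-1 ratios were -0.80, -0.90, -1.38 and -0.75 on arrays 11a, 11b, 12a and 12b, all below 0, and the fitted ratio was -0.96 ± 0.12 (SE), or 1.94-fold lower (limma adjusted p 9.4e-08). The msl-3 ratios were -0.81, -0.64, -1.12 and -0.45, also all below 0, with a fitted -0.76 ± 0.09 (SE, limma adjusted p 8.4e-07). The mof arrays gave -0.23, -0.26 and -1.03 (fitted -0.54 ± 0.15, SE, limma adjusted p 0.0058). Array 12a stood apart for mof, and without it the ratio was -0.31 (adjusted p 0.17). The msl-2 arrays gave 0.45, 0.50, 0.52 and 0.02 (fitted 0.37 ± 0.12, SE, limma adjusted p 0.0067); without array 12a it was 0.31 (adjusted p 0.067), and scaled to the same spread 0.29 (adjusted p 0.051). The mle arrays gave 0.20, 0.09, 0.28 and -0.01 (fitted 0.14 ± 0.11, SE), which was not called. The ovary markers osk, yl and Vm32E were at -2.29, -2.57 and -2.41 in the same comparison. In whole-fly RNA, fewer cells of a type and less RNA per cell cannot be told apart. Nor can the tra2 allele and the strain background, as the females were not of the mutant's strain.

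Set against males or siblings, the XX mutants gave no call among these genes. In XX;dsx over male none of the 4 tested genes was called by limma, against a background of 26.7%, and 1 had an unadjusted p below 0.05. It was msl-2, whose arrays gave -0.36, -0.16, -0.30 and -0.35, all below 0, with a fitted -0.29 ± 0.12 (SE, adjusted p 0.058). Under 6 alternative settings it was called, with values from -0.29 to -0.38. The mle arrays gave -0.44, -0.11, -0.09 and -0.16, also all below 0 (fitted -0.20 ± 0.11, SE, adjusted p 0.19). The msl-1 arrays lay between -0.09 and 0.09, and the mof arrays gave 0.16 and -0.11, on both sides of 0. The single msl-3 array read 0.05. In XX;tra2 over XY;tra2, sibling flies that differ in X dose, none of 3 tested genes was called, against 20.5%, and 1 had an unadjusted p below 0.05. Again it was msl-2, with -0.30, -0.01, -0.47 and -0.26 (fitted -0.26 ± 0.12, SE, adjusted p 0.12); scaled to the same spread it was -0.34 and called (adjusted p 0.028). The msl-1 arrays gave 0.07, -0.41, -0.14 and 0.09 (fitted -0.10 ± 0.12, SE) and the mle arrays -0.23 and -0.14 (fitted -0.10 ± 0.16, SE). The single msl-3 array read -0.33, and mof was not measured. The testis markers betaTub85D, dj and Mst87F were at -2.27, -2.41 and -2.37 in XX;tra2 over XY;tra2 and at -1.93, -2.26 and -2.29 in XX;dsx over male; their part in the msl-2 values was not tested.

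Some pairs of RNAs never shared an array and were compared through the others in a fit of all 11 RNAs on a common scale. XX;tra2 minus male gave no call among 5 genes by limma (none at an unadjusted p below 0.05), with a background of 15.0%: msl-2 was at -0.02, with a 95% interval from -0.35 to 0.31, and msl-1 at -0.15, with an interval from -0.52 to 0.22. XX;dsx minus female gave msl-1 alone of 4 genes, at -0.80 ± 0.18 (SE, limma adjusted p 0.00071), with a background of 38%. XY;tra2 minus male (background 2.71%) and XX;tra2 minus XX;dsx (background 0.0588%, 7 elements) gave no call among 3 and 4 genes, and none at an unadjusted p below 0.05.

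Flies without a germline were compared with each other, with gonads and with fertile flies of the same sex. Tudor female over tudor male had few differences at all, with 1.21% of elements called, and none of 4 tested genes was called by limma or had an unadjusted p below 0.05. The msl-1 arrays gave 0.14 and 0.14 (fitted 0.18 ± 0.18, SE), the msl-2 arrays -0.06 and 0.06, the msl-3 arrays -0.10 and 0.14 and the mle arrays 0.04 and 0.03. The single mof array read 0.04. These 2 arrays share a dye assignment, as do those of the tudor over gonad comparisons, so a dye effect there is removed only through the term shared with the other arrays.

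Against ovary, msl-1 was the single member called in both sexes of tudor flies. It read -0.61 and -0.45 in tudor female over ovary (fitted -0.57 ± 0.18, SE, limma adjusted p 0.018; background 24.6%). Without a dye coefficient that ratio was -0.53 and no longer called (limma adjusted p 0.091). In tudor male over ovary msl-1 read -0.72 and -0.48 (fitted -0.64 ± 0.18, SE, limma adjusted p 0.0065; background 30.4%). The call was lost without array 21a, 21b or 19a (ratios of -0.48, -0.65 and -0.52, adjusted p of 0.26, 0.14 and 0.23). The msl-3 ratios were -0.24 ± 0.14 and -0.23 ± 0.14 (SE), not called here but called on the common scale, at -0.31 (adjusted p 0.018) and -0.35 (adjusted p 0.013). In tudor females and males over ovary, msl-2 was at -0.04 ± 0.17 and 0.15 ± 0.17, mle at 0.08 ± 0.16 and 0.04 ± 0.16, and mof at -0.23 ± 0.19 and -0.13 ± 0.19 (SE), none of them called.

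Against testis, mle was the single member called in both sexes of tudor flies. It read -0.62 and -0.48 in tudor female over testis (fitted -0.64 ± 0.16, SE, limma adjusted p 0.0016; background 37.2%), and -0.52 and -0.48 in tudor male over testis (fitted -0.59 ± 0.16, SE, limma adjusted p 0.0041; background 32.1%). The mle call in tudor males was lost without a dye coefficient (-0.50, limma adjusted p 0.053). Without array 20a, 18a or 18b the value was -0.57, -0.57 or -0.60 with an adjusted p of 0.082, 0.12 or 0.057. The msl-1 ratios over testis were -0.20 ± 0.18 and -0.29 ± 0.18 (SE) for tudor females and males. The msl-2 ratios were -0.27 ± 0.17 and -0.19 ± 0.17 (SE), not called here, but in tudor females called on the common scale, at -0.39 (adjusted p 0.0047). The msl-3 ratios were -0.06 ± 0.14 and 0.08 ± 0.14 (SE). For mof, tudor male over testis was 0.05 ± 0.19 (SE), and the single array of tudor female over testis read -0.09.

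Against whole flies of the same sex, tudor female over female gave 1 of 3 genes called against 30.4%. This was msl-1, at -0.47 and -0.94 on arrays 24 and 25 (fitted -0.71 ± 0.18, SE, limma adjusted p 0.0035), and without array 25 the ratio was -0.50 (adjusted p 0.31). The ovary markers osk, yl and Vm32E were at -1.39, -1.36 and -0.88 there. The msl-2 arrays gave 0.09 and 0.26 (fitted 0.17 ± 0.17, SE) and the mle arrays 0.14 and -0.07 (fitted 0.04 ± 0.16, SE), while the single arrays of msl-3 and mof read -0.28 and -0.24. Tudor male over male gave none of 4 tested genes called by limma, against 7.35%, and none at an unadjusted p below 0.05, with msl-1 at 0.05 ± 0.18, msl-2 at 0.07 ± 0.17, mle at -0.25 ± 0.16 and mof at -0.04 ± 0.19 (SE). The single msl-3 array read -0.03. The yolk genes Yp1 (1.58) and Yp2 (1.73) were called higher in tudor male over male, and Yp3 (1.04) was not called. In tudor female over tudor male they were still higher, at 2.49, 2.97 and 2.70. Whether the RNA source behind the yolk values in tudor males also moved the member ratios of tudor flies was not tested.

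On the common scale, the level of 3 genes could be placed in all 11 RNAs, as a log2 difference from the mean of the 11. For msl-1 the ovary (0.69 ± 0.11) and the whole female (0.62 ± 0.11) stood above all others. The rest ran from female carcass (0.07 ± 0.16) through tudor female (-0.06 ± 0.10), testis (-0.08 ± 0.11), male carcass (-0.14 ± 0.16), tudor male (-0.17 ± 0.11), XX;dsx (-0.18 ± 0.17), male (-0.19 ± 0.12) and XY;tra2 (-0.24 ± 0.20) down to XX;tra2 (-0.33 ± 0.15). The whole female and the female carcass were the neighbours farthest apart, and their difference of 0.56 was not called (adjusted p 0.073). For msl-2 the order was testis (0.30 ± 0.10), XY;tra2 (0.29 ± 0.17), male carcass (0.25 ± 0.14), male (0.05 ± 0.10), tudor male (0.05 ± 0.09), XX;tra2 (0.03 ± 0.14), tudor female (-0.09 ± 0.09), female carcass (-0.12 ± 0.13), ovary (-0.19 ± 0.10), XX;dsx (-0.24 ± 0.15) and female (-0.34 ± 0.10). All 5 XY sources were above all 6 XX sources in that order. For mle the testis was highest (0.34 ± 0.10), followed by male (0.10 ± 0.10), male carcass (0.10 ± 0.15), XY;tra2 (0.08 ± 0.21), female carcass (0.03 ± 0.14), XX;tra2 (-0.03 ± 0.13), ovary (-0.08 ± 0.10), XX;dsx (-0.10 ± 0.15), tudor female (-0.12 ± 0.09), tudor male (-0.16 ± 0.09) and female (-0.17 ± 0.10). No neighbours in the msl-2 and mle orders differed by limma's adjusted p either. The errors here are standard errors of the fit, and msl-3 and mof had too few arrays to be placed in all 11 RNAs.

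**Figure D3:**
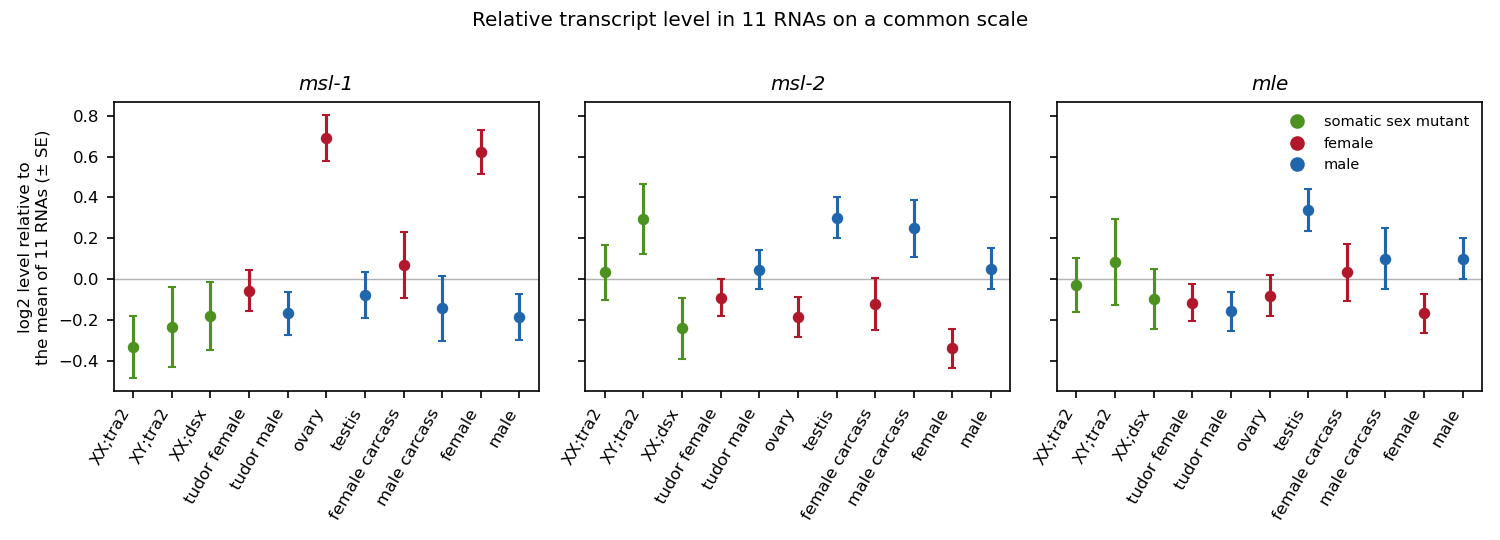
Log2 level relative to the mean of the 11 RNAs (y axis) for msl-1, msl-2 and mle by RNA source (x axis), with standard errors; green marks tra2 and dsx mutants, red female and blue male sources. For msl-1 the ovary (0.69) and the whole female (0.62) lie above the other 9 sources, and for msl-2 the testis (0.30) is highest and the whole female (-0.34) lowest.

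Across the 11 RNAs msl-1 and msl-2 correlated at -0.61, msl-1 and mle at -0.35 and msl-2 and mle at 0.76. These are descriptions over 11 levels that share arrays. Among 2582 genes that varied (SD of at least 0.3 over the 11 RNAs), the levels most like msl-1 were those of Nop60B (Pearson r 0.99), Nmt (0.98) and CCT6 (0.98). The most like msl-2 were Sirt2 (0.85), CG10947 (0.84) and CG15459 (0.84), and the most like mle were Miro (0.93), Acam (0.93) and Ak3 (0.91). The SD of the members' own levels was 0.34 for msl-1, 0.22 for msl-2 and 0.15 for mle. Thus msl-2 and mle did not reach the 0.3 asked of the compared genes, and the mle SD was of the size of the standard errors of its levels.

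Genes whose products bind, help or regulate the complex formed a list of 25, of which 17 were on the arrays under a current name. roX1 and roX2, the RNA components, and Sxl were among those not analysed here. In female over male 11 of 15 tested genes were called higher and 0 lower, beside 28.9% of all elements called higher and 27.8% lower. The list median was 0.50, beside 0.00 over all elements. They were Hrb27C (0.96 ± 0.13), a cofactor of Sex-lethal on msl-2 mRNA, and the subunits of the MOF-containing NSL complex wds (0.71 ± 0.10), Rcd5 (0.56 ± 0.10), Rcd1 (0.50 ± 0.08) and nsl1 (0.15 ± 0.06). The NURF remodeller genes Nurf-38 (0.84 ± 0.17) and E(bx) (0.25 ± 0.09) were also called, as were pzg (1.29 ± 0.19), the nuclear pore gene Nup153 (0.53 ± 0.08), Chro (0.49 ± 0.08) and the heterochromatin gene Su(var)3-7 (0.51 ± 0.08; all SE). The other 4 tested partners, Clamp, Iswi, Set2 and Unr, were not called.

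In carcasses, where 18.6% of all elements were called, 0 of 14 partners were called higher and 2 lower, Chro (-0.28 ± 0.08, SE, limma adjusted p 0.020) and nsl1 (-0.23 ± 0.06, SE, limma adjusted p 0.0060). Both were called higher in whole females. In XX;tra2 over XY;tra2 Nup153 was higher (0.22 ± 0.07, SE, limma adjusted p 0.020) and the remodeller ATPase gene Iswi lower (-0.45 ± 0.15, SE, limma adjusted p 0.024), of 13 tested and with 20.5% of all elements called. In XX;tra2 over female 0 of 15 were higher and 11 lower, beside 28.4% and 28.1% of all elements, and the list median was -0.37 beside 0.01. Those 2 shares are by direction. Every other share in this paragraph counts calls in either direction, and so is not a like measure for a count in 1 direction. In ovary over testis 12 of 16 were higher and 3 lower, with 66.7% of all elements called, and in ovary over female carcass 10 of 15 were higher and 0 lower, with 49.2% called. Testis over male carcass gave 4 of 16 higher and 3 lower, with 52.9% called, and XX;dsx over male 1 of 14 higher and 0 lower, with 26.7% called. Against ovary, 4 of 13 were lower in tudor females and 6 of 15 in tudor males with 0 higher, beside 24.6% and 30.4% of all elements called. In tudor female over female 8 of 15 were lower and 0 higher, with 30.4% called. Against testis, 1 of 12 was higher in tudor females and 1 of 15 lower in tudor males, beside 37.2% and 32.1% of all elements. No partner was called by limma in tudor female over tudor male or in tudor male over male, with 15 tested in each and 0 at an unadjusted p below 0.05, beside 1.21% and 7.35% of all elements.

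**Figure D4:**
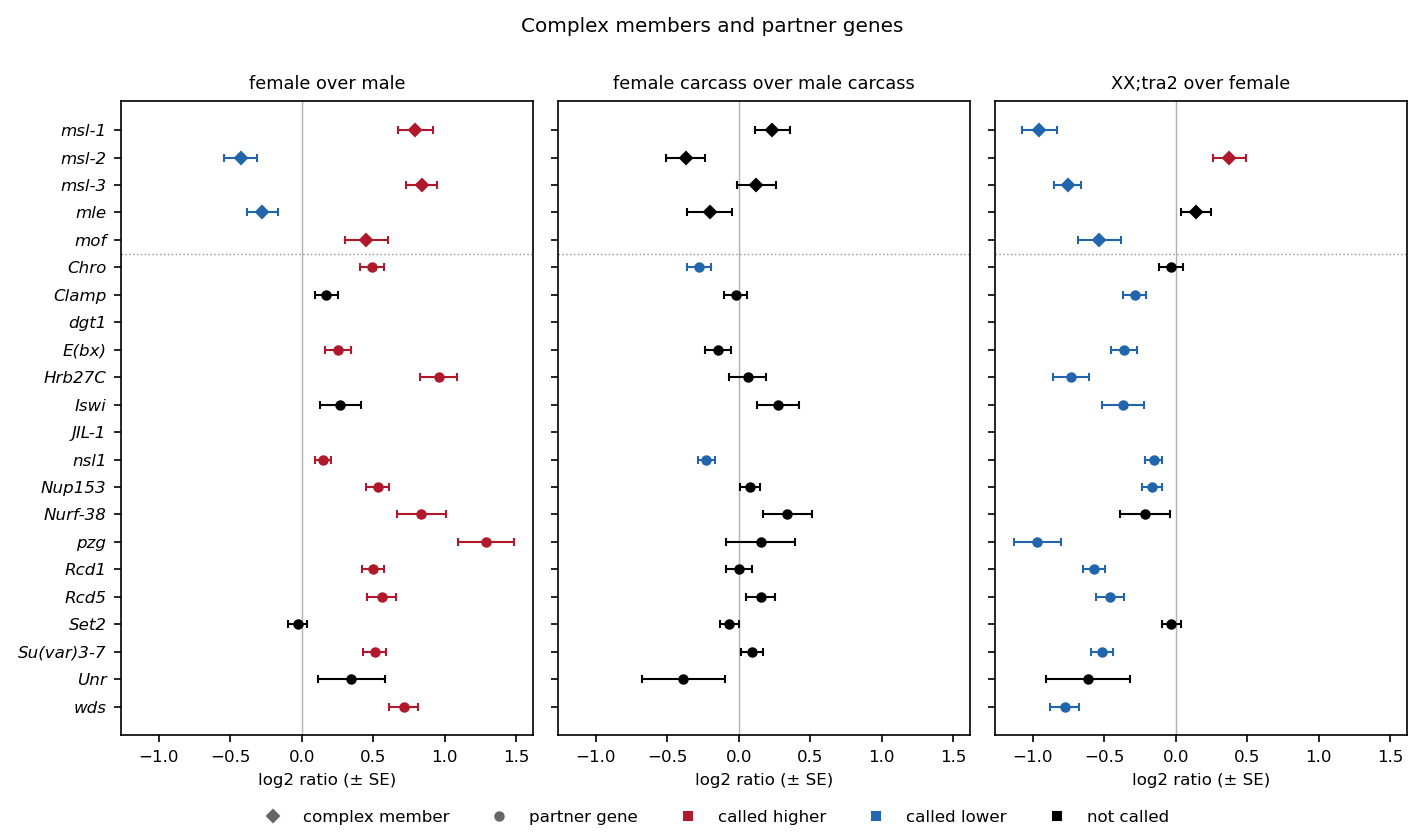
Log2 ratio with its standard error (x axis) of the 5 complex genes (diamonds, above the dotted line) and 17 partner genes (circles) in female over male, female carcass over male carcass and XX;tra2 over female, coloured red where called higher, blue where called lower and black where not called. In whole flies the 11 called partners lie right of 0, between 0.15 and 1.29, and in carcasses the called ones, Chro (-0.28) and nsl1 (-0.23), lie left of it; JIL-1 and dgt1 had too few arrays.

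The precision of these values depended on the number of arrays and on the residual SD of each gene, which ran from 0.20 for msl-3 to 0.29 for mof. Duplicate spots of the 5 genes differed by a median of 0.08 to 0.12 on the log2 scale and by at most 0.56. Ratios that can be had by more than 1 path were compared as well. The direct ovary over testis ratio of msl-1 exceeded the ratio through tudor males by 0.60 (95% interval 0.03 to 1.16) and that through tudor females by 0.58 (0.02 to 1.14), while the intervals of the other genes and paths tested all held 0. The direct ovary over testis value of msl-1, 0.95, was 0.77 on the common scale and 0.52 with arrays scaled to the same spread; it was called under both.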

How the data were processed

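RNA was poly(A)-selected mRNA, 200 ng per probe, labelled with Cy3 (channel 1) or Cy5 (channel 2), hybridised between a pair of subarray slides and scanned on a GenePix 4000A, per the labels. The deposited table holds the authors' log ratios of 46 arrays, taken here as log2; their background correction, normalization, filter and log base are not stated in the labels or files used here. Arrays differed in depth of measurement, with 7994 to 14881 of 15732 elements measured.

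Duplicate spots were averaged, each array was centred on its median, and 15 signed comparison coefficients with 1 shared dye coefficient were fitted by generalised least squares with limma's moderated variance (limma 3.58.1, R 4.3.3). The number in the title, taken as the hybridisation, was a random block (correlation -0.088). As that correlation was below 0, the block did not widen the standard errors where paired arrays were alike. The same test was applied to differences of ratios and to a fit of 11 RNAs on a common scale. Elements measured on at least 2 arrays of a comparison were tested. The fit was run on simulated data with independent arrays of equal spread and no block. That run could not test the pairing of arrays or their unequal spread. A total of 9626 values of the first subarray of arrays 7b and 8b were left out. All members are named in the comparisons where they were measured; partners are named where called in whole flies, carcasses or tra2 siblings; the 3 genes most like each member were taken by Pearson r. The members, lists and tests were chosen with earlier results of these data known. Alternatives covered centring, spread, duplicate spots, dye, block, arrays 7b and 8b, elements with missing arrays, own-array fits, the common scale and single arrays left out.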

Additional observations from a re-analysis of the deposited data

Results flagged for a closer look

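In XX;tra2 over female, array 12b read 0.0235 for msl-2, far from the 0.45, 0.50 and 0.52 of the other 3 arrays. About 1 in 20 groups is set apart in this way by chance, and 1 was found here among the 17 groups of 4 arrays checked.

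The XX over XY ratio differed between sources for msl-1 and msl-3 in 6 tests of the difference. Whole flies exceeded carcasses by 0.56 for msl-1 and 0.71 for msl-3. Whole flies exceeded tudor flies by 0.62 for msl-1 and 0.81 for msl-3. The gonads exceeded the carcasses by 0.71 for msl-1, and whole flies exceeded the tra2 siblings by 0.89 for msl-1. The spread of the arrays moves with these sources, and 5 of the 6 differences lost their call once every array had been brought to the same spread.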

How the results depend on the processing

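Counts of member genes called moved by more than 1.5 times in these settings. With arrays scaled to the same spread they were 3 in female over male, 2 in ovary over testis, 0 in testis over male carcass, and 1 each in the carcasses, XX;dsx over male and XX;tra2 over XY;tra2. On the common scale they were 1 in the carcasses, 0 in testis over male carcass and 2 each in tudor female over female, over ovary and over testis and in tudor male over ovary. With 7b and 8b as deposited they were 0 in ovary over female carcass, where mof reversed to -0.030, and 1 each in the carcasses and XX;dsx over male; with both arrays left out they were 1 in the carcasses and 1 in XX;dsx over male. Own-array fits gave 3 in female over male, 0 in testis over male carcass and 1 in XX;dsx over male. Elements measured on all arrays gave 3 in female over male and 2 in ovary over testis, as fewer genes were tested. Without a dye coefficient they were 0 in testis over male carcass, tudor female over ovary and tudor male over testis, without the block 0 in testis over male carcass, with the first spot 0 there and 1 in XX;dsx over male, and without centring 1 in XX;dsx over male. Smaller moves were to 4 in female over male without a dye coefficient, to 2 in ovary over female carcass without centring, with the first spot or without a dye coefficient, and to 5 in ovary over testis with 7b and 8b as deposited, without centring, on the common scale or with the second spot. The count in XX;tra2 over female was 3 with the same spread, with elements measured on all arrays and with own-array fits. Leaving out each array in turn gave 3 to 5 in female over male, 3 to 5 in ovary over testis, 1 to 3 in ovary over female carcass, 2 to 4 in XX;tra2 over female, 0 to 1 in the carcasses, tudor female over female, tudor female over testis and tudor male over ovary, and 0 in the other comparisons. The lone array left in a 2-array comparison was assumed to vary like the others. The cause of these changes was not tested. Scaling to the same spread ended 11 of the calls on single values and added 3, and turning the sign of the first subarray of 7b and 8b ended or added 0. No paired analysis was possible because each comparison is a ratio within arrays and the comparisons share no replicate numbers. Each gene has 1 element, so no other element could stand for it.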
